A study of Mus musculus with 12 samples.

Results

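T lymphoma cells with little other tissue, from a study of the ZMYM2-FGFR1 fusion in mice, were set against normal double-positive thymocytes. Lymphoma cells here means 2 arrays treated as 1 set: a transplanted lymphoma sorted for GFP+Thy1+DP+ cells, and ZNF112, which the labels describe only as a cell line. The normal side held 3 arrays of sorted Thy1+ double-positive (DP, CD4+CD8+) thymocytes of Balb/c mice, each from thymuses of 3 animals. A gene was kept when both lymphoma-cell arrays lay above, or both below, all 3 DP arrays, which held for 5230 of the 11433 genes tested (45.7%), 2630 above (23%) and 2600 below (22.7%). These 5 arrays are part of a series of 12 Affymetrix Mouse430 2.0 arrays that profiled mouse disease driven by the fusion. A further 3 unsorted lymphomas, of which over 90% of cells were GFP+Thy1+DP+, were used to estimate the spread and for comparison. The lymphomas came from mice of the 3rd serial transplant; neither they nor the line have a strain in the labels. Stem cell arrays (2 of normal and 2 of leukaemic cells) were not used.

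Double-positive thymocytes are the most abundant cells of the thymus. They carry both coreceptors, rearrange the T cell receptor alpha genes with the RAG recombinase, and die unless a weak signal through their new receptor selects them. Their precursors are driven by Notch1 and by interleukin-7, signals that fade as cells become double positive. ZMYM2-FGFR1 joins the self-associating part of a zinc finger protein to the kinase domain of the FGF receptor FGFR1, and such fusions signal without ligand through STAT5 and other routes. All levels below are log2 intensities of 1 probe set per gene and every change is a difference of log2 values, with its standard error (SE) after ± where one is given; a difference of 1 is 2-fold. "Rose" and "fell" are used for genes whose Benjamini-Hochberg adjusted p was under 0.05 in limma, a linear model fitted across all genes. Where 3 values and then 2 follow a gene without further words, they are the DP arrays, then the sorted lymphoma and the line.

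The sort and the line were checked with markers of other cells. Sums cover every measured gene of a list, also those too low to be tested. Macrophage markers (13 genes) summed to between 1271 and 1350 linear units in the DP arrays, 1329 in the sorted lymphoma and 1399 in the line. The unsorted lymphomas reached 18205 to 46109. Stroma and endothelium markers (12 genes) summed to between 910 and 1042, 868 and 984, against 19452 to 38462. MHC class II and dendritic markers (11 genes) gave 1757 to 1915, 1249 and 1317, against 26162 to 32917. Both lymphoma-cell arrays therefore lay at or below the DP level for MHC class II genes and close to the DP range for macrophage and stromal genes, whereas every unsorted tumour lay far above. Granulocyte markers (10 genes) were at 578 to 609 in DP, 720 sorted, 664 in the line and 1080 to 3860 unsorted. Among 5 thymic epithelial genes only Epcam was high (12.07 sorted, 11.28 line, 6.62, 6.30 and 6.86 in DP), although another Epcam probe set differed by 0.18, while Krt5 and Krt8 were low; Krt8 lay at 5.70 and 5.88. In bulk RNA, fewer cells of a type and less RNA per cell cannot be told apart.

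**Figure D1:**
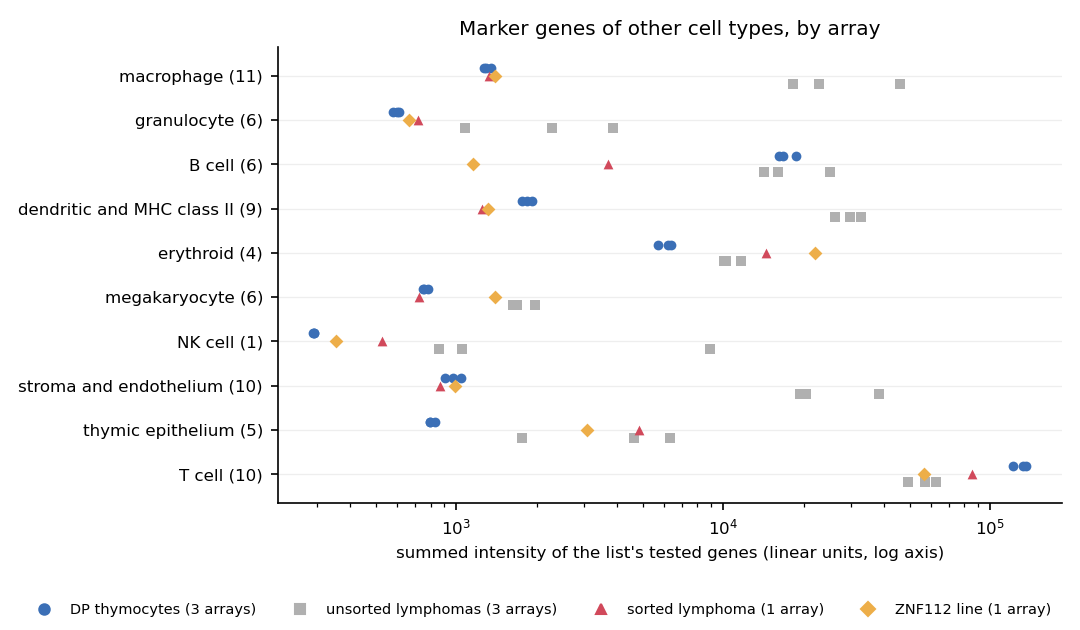
Summed linear intensity (log axis) of the measured marker genes of each cell type, 1 point per array. The sums include genes too low to be tested, although the axis names tested genes and the numbers in brackets count only those. For macrophage, stromal and MHC class II genes the sorted lymphoma and the line lie near or below the 3 DP arrays, and the 3 unsorted lymphomas lie above them; for B cell genes, led by Ighm, the DP arrays are high.

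The 2 lymphoma-cell arrays are not replicates of one condition, and the line does not carry the double-positive surface pattern at RNA level. Cd8b1 was at 13.22 in the sorted lymphoma and 6.19 in the line, against 14.32, 14.33 and 14.04 in DP thymocytes; Cd8a was at 13.58 and 8.51 and Cd4 at 11.01 and 6.88. T cell genes were present in both: Cd3g was at 13.65 and 13.72, and Thy1 at 13.30 and 13.41. The line and the sorted tumour also shared very high Trgv1 (below). Across genes, which are not independent replicates, Pearson's r was 0.994 to 0.995 between DP arrays, 0.882 between the sorted lymphoma and the line, 0.899 to 0.902 between the sorted lymphoma and DP, and 0.849 to 0.86 between the line and DP. Beta-actin control probes, whose 3' signal over the 5' one reports RNA length, gave ratios of 2.18 to 2.23 in DP, 3.39 in the sorted lymphoma and 2.6 in the line. The same ratio of Gapdh was 3.19 to 3.66, 4.56 and 2.67, so the line lay above DP by one control and below it by the other; the part of RNA length in the differences was not tested. Fgfr1 itself was low everywhere (5.73, 5.86 and 5.64 in DP, 5.43 sorted, 6.93 line), and whether its probe set lies in the fused part was not checked.

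Lymphoma cells differed from DP thymocytes in 789 genes (6.9%), all of them among the 5230 kept by the same values: 416 rose (3.64%) and 373 fell (3.26%). Of these, 355 rose and 311 fell by 2-fold or more, and 49 rose and 22 fell by 16-fold or more. The median difference over all genes was 0.01. In 67 of the genes that rose every DP array was under log2 6.7 (intensity 104, near the array medians of 99.5 to 109), and in 101 of those that fell both lymphoma-cell arrays were; so the sizes of these changes are uncertain. Most kept genes lay close to DP: the nearer lymphoma-cell array was a median of 0.25 from the nearest DP array, 1.3 among called genes and 0.19 among the rest. The DP arrays varied with a median SD of 0.112 per gene, the unsorted lymphomas with 0.303, and the sorted lymphoma and the line were a median of 0.438 apart. The number of calls depended on single arrays: it was 292, 305 and 324 without DP array 1, 2 or 3, and 2402 without the sorted lymphoma. It was 858 without the line. The number of kept genes was 8858 with the sorted lymphoma alone and 9677 with the line alone. Of 386 called genes with other probe sets, 246 had another called the same way, 140 had none called and 0 had one called the opposite way. Of the 789 genes, 126 that rose and 77 that fell were called under every alternative setting that could test them. The 2 lymphoma-cell arrays are of different kinds, a sorted tumour and a cell line, and the p-values measure the spread among these arrays.

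**Figure D2:**
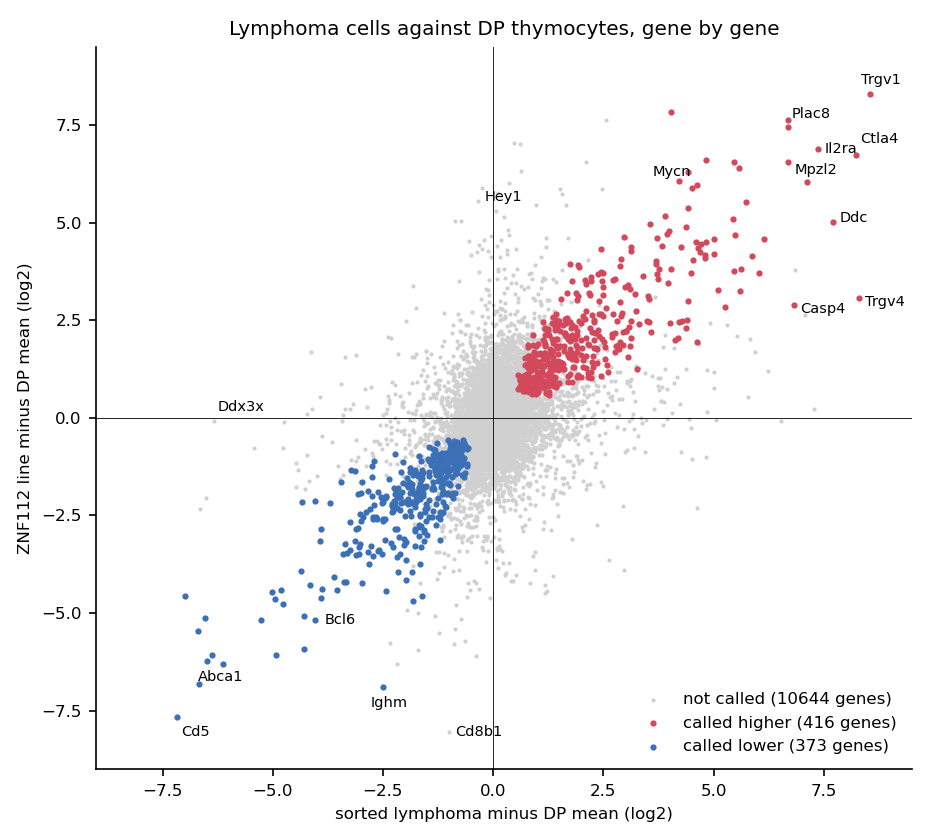
Difference of each of the 11433 genes from the mean of the 3 DP arrays, in the sorted lymphoma (x axis, log2) and in the ZNF112 line (y axis, log2); both axes share the DP arrays. The 416 genes that rose lie at the upper right and the 373 that fell at the lower left, while genes such as Cd8b1, Hey1 and Ddx3x moved far in 1 array only.

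The 12 genes that rose furthest in both arrays included T cell receptor, cytokine receptor and interferon-inducible genes. Trgv1, a variable segment of the T cell receptor gamma chain that DP thymocytes of the alpha-beta lineage do not use, was at 5.75, 5.80 and 5.57 in the DP arrays, 14.26 in the sorted lymphoma and 14 in the line, a rise of 8.42 ± 0.17 (adjusted p = 1.58e-06). The unsorted lymphomas were as high, at 14.28, 14.05 and 14.25. Its neighbour Trgv4 was at 13.78 in the sorted lymphoma and 13.85, 13.78 and 13.90 in the unsorted tumours but at 8.55 in the line, with DP at 5.47, 5.61 and 5.39; it rose by 5.68 ± 1.25, and the sorted lymphoma and the line differed by 5.23 ± 0.22 (adjusted p = 0.00137). Segments of this family are alike in sequence, so their probe sets may share signal. Il2ra, which makes the interleukin-2 receptor high affinity, was at 6.06, 6.57 and 6.47 in DP and 13.73 and 13.26 in lymphoma cells, a rise of 7.13 ± 0.24 (adjusted p = 1.29e-05). No lymphoma array came near a DP array for these genes.

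Ctla4, an inhibitory receptor of activated T cells, was at 5.95, 6.34 and 5.93 in DP, 14.30 in the sorted lymphoma and 12.82 in the line (7.49 ± 0.70, adjusted p = 0.00132). Plac8, a small cysteine-rich protein, was at 6.65, 6.68 and 6.80 against 13.39 and 14.15 (7.06 ± 0.26). Mpzl2, an adhesion molecule first described in thymus, was at 7.43, 6.69 and 7.18 against 13.79 and 13.65, a rise of 6.62 ± 0.42 that both of its other probe sets shared (4.58 and 6.38). Ddc, dopa decarboxylase, was at 5.34, 5.28 and 5.48 against 13.09 and 10.38 (6.36 ± 0.76), but another probe set of Ddc differed by 0.60 without a call. The remaining genes of the 12 highest were the interferon-inducible GTPases Iigp1 (7.16) and Gm4951 (6), Gprin3 (6.59), the myosin light chain Myl10 (5.99), the ciliary gene Drc1 (5.63) and Sgip1 (5.27). Sgip1 was at 11.79, 8.82 and 7.47 in the unsorted tumours and lost its call without the line, without any 1 DP array, without unsorted lymphoma 2, without a filter and with low values floored (adjusted p up to 0.122). In 10 of the 12 genes, all but Plac8 and Mpzl2, every DP array lay under log2 6.7.

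Cd5 and Cd6, which dampen signals of the T cell receptor, were among the 12 genes that fell furthest. Cd5 was at 13.45, 13.34 and 13.39 in the DP arrays, 6.22 in the sorted lymphoma and 5.74 in the line (-7.41 ± 0.40, adjusted p = 0.000147), and its relative Cd6 at 12.43, 12.51 and 12.37, 7.52 and 6.35 (-5.50 ± 0.39). Bex1 was at 11.63, 11.53 and 11.68 against 5.49 and 5.31, and Tdrp at 11.78, 11.79 and 11.71 against 5.37 and 5.68. Ugt8a, a galactosyltransferase of glycolipid synthesis, was at 9.80, 9.94 and 9.82 against 4.6 and 4.66, although another probe set of it differed by -0.63 without a call. For each of these genes the unsorted lymphomas were also low; Cd5 was at 5.82, 7.08 and 7.17 there.

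A second group among the 12 lowest was low in lymphoma cells but not, or less, in the unsorted tumours. Abca1, a cholesterol exporter, was at 12.08, 11.54 and 12.08 in DP and 12.12, 11.03 and 12.03 in the unsorted lymphomas, whose ranges overlap, and at 5.41 and 5.66 in the sorted lymphoma and the line (-6.36 ± 0.36 against DP, adjusted p = 0.000165). St6gal1, a sialyltransferase of cell surface glycans, was at 12.61, 12.57 and 12.54 in DP, 9.20, 9.30 and 10.44 unsorted, 5.90 sorted and 5.76 in the line. F13a1, the coagulation factor XIII A chain, was at 12.47, 12.37 and 12.37 in DP, 9.21, 9.52 and 9.77 unsorted, 5.71 sorted and 6.94 in the line. Hipk3, a nuclear kinase, was at 11.71, 11.46 and 11.63 in DP, 10.55, 9.02 and 9.90 unsorted, 5.06 sorted and 6.46 in the line. For all 4 both lymphoma-cell arrays lay below every unsorted array. Macrophage and stromal markers are high in the same unsorted arrays (above), and their part in these levels was not tested. Averaged over all its probe sets, Abca1 differed from DP by -2.41, since its other probe sets lay at or under 6.31 in every array. The other probe set of St6gal1 differed by -0.43 without a call. In the fit with all 12 arrays Hipk3 and St6gal1 missed the threshold against DP (adjusted p = 0.054 and 0.0588). Arap2 (-5.78), Tacc2 (-4.79) and the antisense RNA Dgkeos (-4.77) complete the list; Arap2 lost its call without any 1 DP array (adjusted p up to 0.0634). In 9 of the 12, all but F13a1, Cd6 and Arap2, both lymphoma-cell arrays lay under log2 6.7.

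**Figure D3:**
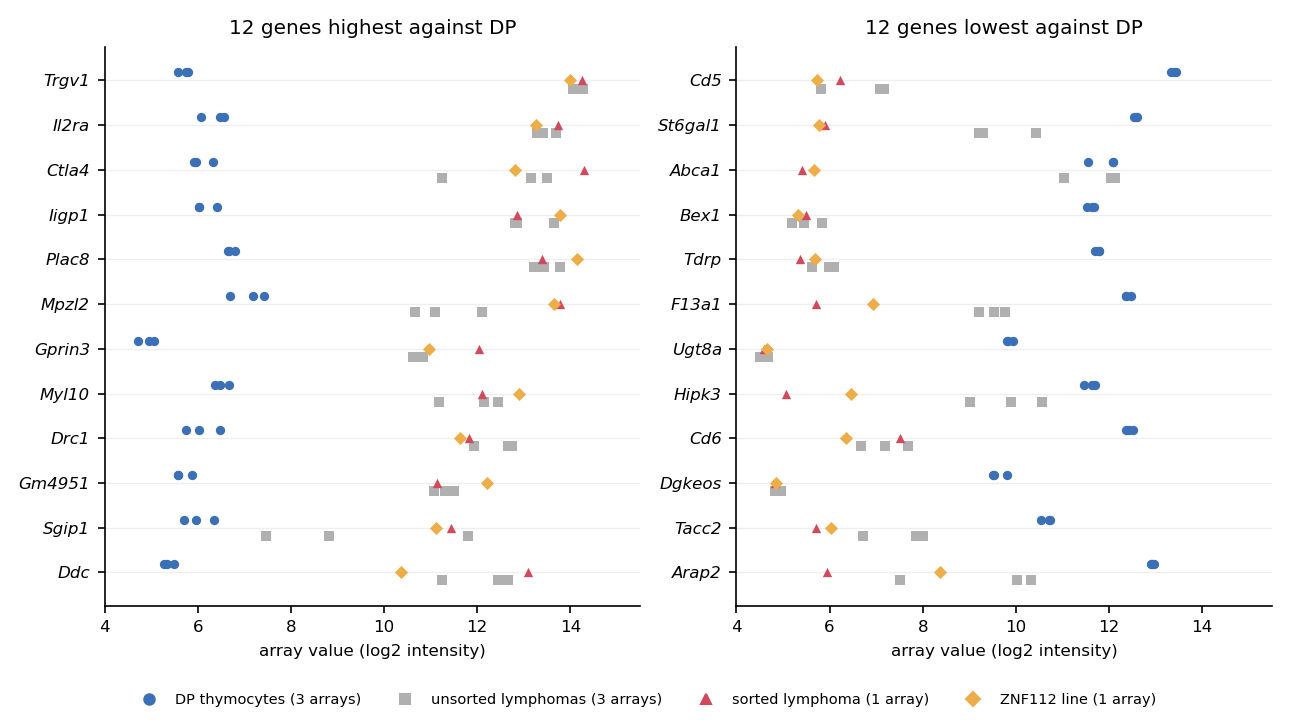
Log2 intensity on each array of the 12 genes highest and the 12 lowest against DP thymocytes, ranked by the less changed of the 2 lymphoma-cell arrays. No lymphoma-cell array overlaps a DP array; for Abca1, St6gal1, F13a1 and Hipk3 the grey squares of the unsorted lymphomas lie apart from the sorted lymphoma and the line, and for Mpzl2 below them.

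Among genes that STAT5 is known to regulate, more rose than fell. Of 14 tested STAT5 targets 7 rose and 2 fell, where 3.64% and 3.26% of all genes did, and the median difference was 2.43 (2.64 in the sorted lymphoma, 2.16 in the line). Socs2, a feedback inhibitor of cytokine receptors, was at 6.02, 5.96 and 5.72 in DP, 10.33 sorted and 12.21 in the line. This was a rise of 5.36 ± 0.57 (adjusted p = 0.00211). Another Socs2 probe set also rose (5.59, adjusted p = 0.00421), while those that differed by 1.46 and 1.56 did not pass. Cish, of the same family, was at 7.25, 7.31 and 7.42, 11.74 and 10.31 (3.69 ± 0.57), and Socs3 at 9.26, 9.37 and 9.55, 13.62 and 11.84 (3.34 ± 0.64); Socs3 lost its call in 4 alternatives and Cish in 2. The survival kinase Pim1 (2.62), the cell death inhibitor Bcl2 (2.25), the cytokine Osm (3.38) and Il2ra were the other members that rose. Bcl6, a repressor that activated STAT5 lowers, was at 12.39, 12.33 and 12.23 in DP, 8.29 sorted and 7.14 in the line and fell by 4.61, as did a second probe set (-3.03). Bcl2l1, which encodes BCL-XL, is counted as a STAT5 target but fell by 1.83; it lost this call under 11 of the alternatives (adjusted p up to 0.153). Ccnd2, a D-type cyclin, was high in the line (12.15) and not in the sorted lymphoma (7.66; DP 6.37, 6.91 and 6.78), and Pim2 was high in the sorted lymphoma (12) but not in the line (8.61). Over the alternatives 5 to 8 members rose and 1 or 2 fell.

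Receptors for STAT5-activating and related cytokines were called in part. Of 16 tested, 4 rose and 0 fell, where 3.64% and 3.26% of all genes did. The 4 were Il2ra, Il10ra (2.88), Il15ra (1.85) and Ifngr1, the interferon gamma receptor chain (1.01). The list's medians were 1.31 in the sorted lymphoma and -0.12 in the line. Ifngr1 was at 12.92, 12.87 and 12.65 in DP, 13.87 and 13.78, a small change that lost its call in 6 alternatives. Il7r, the interleukin-7 receptor, was at 13.16, 10.98 and 13.11 in the unsorted tumours and 10.15 in the sorted one but at 7.06 in the line against 7.74, 7.61 and 7.76 in DP. Il4ra (-3.34) was lower in both arrays without passing (adjusted p = 0.0656), and another probe set of it did fall (-2.16, adjusted p = 0.0221). Il15ra lost its call under 3 alternatives and Il10ra under 1. Transcripts of the kinases and factors themselves did not pass: Jak3 differed by 1.27, Stat5a by 0.33 and Stat5b by -0.89 (adjusted p = 0.128, 0.747 and 0.328).

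**Figure D4:**
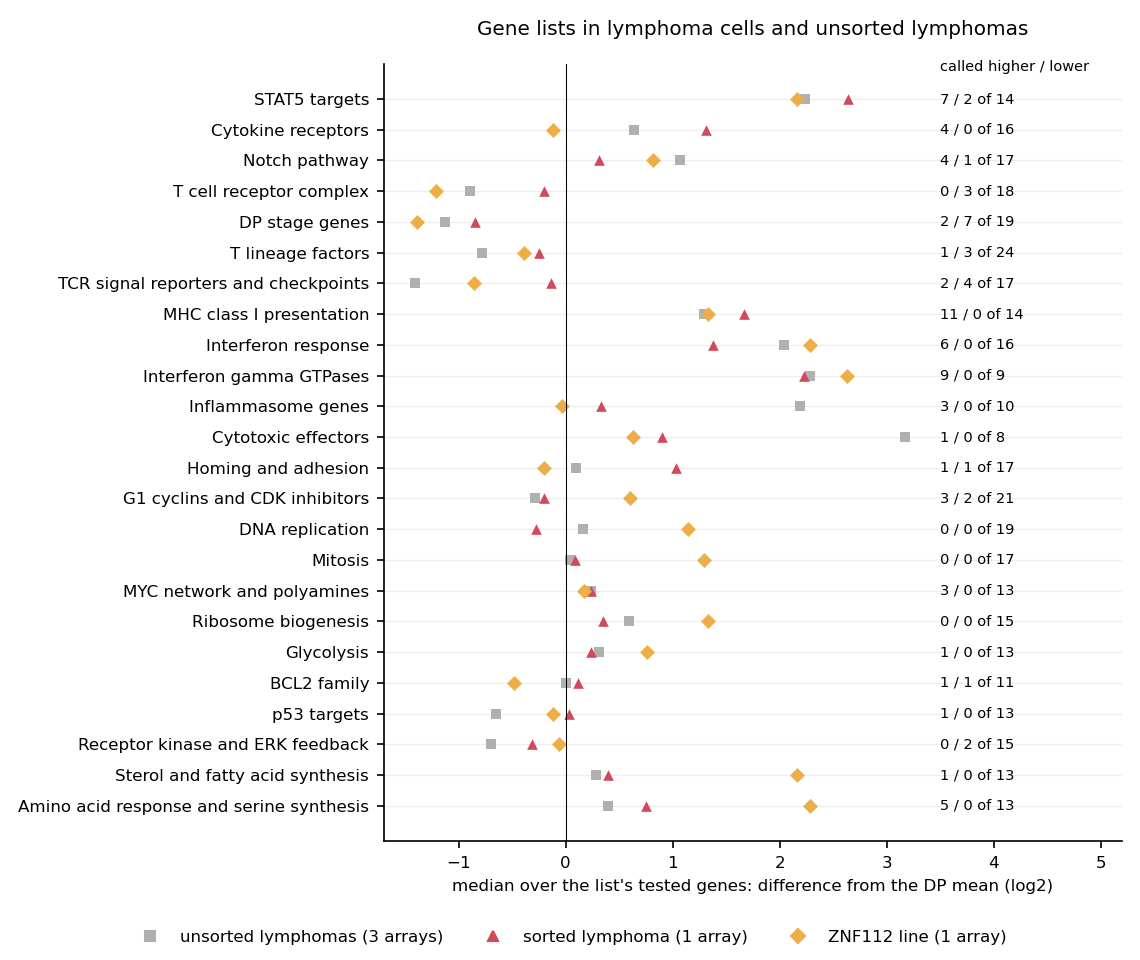
Median difference from the DP mean (log2) over the tested genes of each list, in the sorted lymphoma, the ZNF112 line and the mean of the 3 unsorted lymphomas, with the number of members that rose and fell in lymphoma cells at the right. STAT5 targets, MHC class I and interferon genes are above 0 in both arrays; replication, mitosis, sterol and serine synthesis genes have higher medians in the line than in the sorted lymphoma. All points share the DP arrays.

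In the Notch pathway the receptors Notch1 and Notch3 and some targets rose. Of 17 tested members 4 rose and 1 fell, where 3.64% and 3.26% of all genes did. The median was 1.6 (0.31 in the sorted lymphoma and 0.82 in the line, each taken alone). The receptor Notch1 was at 12.11, 12.36 and 12.53 in DP and 14.20 and 14.19 in lymphoma cells (1.87 ± 0.20, adjusted p = 0.00224), and Notch3, itself a target of Notch1, at 8.78, 8.63 and 9.10, 11.70 and 10.60 (2.31 ± 0.43); Notch3 lost its call in 4 alternatives, and its other probe set did not pass (1.52, adjusted p = 0.0644). The receptor Notch2 lay below DP in both arrays, at 10.86, 11.12 and 11.12, 10.60 and 9.37, without passing (-1.04, adjusted p = 0.129). Dtx1, which encodes the Notch regulator Deltex, was at 8.03, 8.20 and 8.32, 13.79 and 11.43 (4.43 ± 0.68), although a second probe set differed by 0.29 without a call. Targets differed between the arrays: Hes1 was at 7.18 sorted and 10.47 in the line (DP 6.73, 6.64 and 6.58), Hey1 at 7.16 and 13.06 (DP 7.6, 7.47 and 7.42), Nrarp at 10.47 and 8.38 (DP 7.25, 7.51 and 7.54), and Ptcra, which pairs with a beta chain in the pre-T cell receptor, at 10.37 and 12.44 (DP 9.23, 9.59 and 9.44). Ccnd3, the D-type cyclin of early thymocytes, was at 13.81, 13.73 and 13.74 in DP, 11.31 and 11.70 and fell by 2.25. The ligands Jag2 and Dll1 differed by 0.23 and 0.12 without passing. Over the alternatives 2 to 7 members rose and 1 or 2 fell.

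Myc and Mycn rose. Mycn, which DP thymocytes express little, was at 8.35, 8.13 and 8.12 in DP, 12.71 in the sorted lymphoma and 14.09 in the line (5.2 ± 0.39, adjusted p = 0.00045), and Myc at 8, 8.33 and 7.89, 10.56 and 11.77 (3.09 ± 0.36). Odc1, the first enzyme of polyamine synthesis and a known MYC target, was at 10.46, 10.69 and 10.78, 12.30 and 13.07 (2.04 ± 0.27). These were the 3 of 13 network members that rose, and 0 fell. Max (0.52), Mxd4 (-1.04) and Srm (2.12) did not pass. Of all genes 3.64% rose and 3.26% fell, and 23% were kept above DP. Of 15 ribosome biogenesis genes, known as MYC targets, 11 were kept above DP but 0 rose or fell in limma (9 were higher at an unadjusted p under 0.05, and up to 9 rose under an alternative), with medians of 0.35 in the sorted lymphoma and 1.33 in the line. Fibrillarin (Fbl) was at 11.25, 11.47 and 11.28, 11.89 and 13.46.

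All 9 tested GTPases induced by interferon gamma, which guard cells against intracellular parasites, rose, where 3.64% of all genes did. Their median was 2.47 (2.23 in the sorted lymphoma, 2.63 in the line). Iigp1 was at 6.02, 6.42 and 6.03 in DP, 12.85 sorted and 13.79 in the line (7.16 ± 0.36, adjusted p = 0.000131). Among the guanylate-binding proteins, Gbp3 was at 8.86, 9.01 and 8.91, 13.72 and 13.01 (4.44 ± 0.27), Gbp6 at 9.40, 9.19 and 9.24, 13.22 and 14 (4.33 ± 0.33), Gbp2 at 10.68, 10.69 and 10.51, 13.72 and 12.46 (2.47 ± 0.47) and Gbp7 at 12.15, 11.82 and 11.92, 13.56 and 13.67 (1.65 ± 0.17). Among the immunity-related GTPases, Irgm1 was at 8.87, 8.85 and 8.53, 10.86 and 12.18 (2.77 ± 0.39), Irgm2 rose by 2.43, Igtp by 1.65 and Ifi47 by 1.64. Each member lay above all DP arrays in both lymphoma-cell arrays, as did 23% of all genes and every gene that rose. Igtp lost its call with all 12 arrays in the fit, and Gbp2 there and without any 1 DP array; the other 7 kept theirs throughout. Genes of these families are alike in sequence and lie in clusters, so probe sets may share signal.

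Promoters of these GTPase genes are shown because they carry the motif that interferon-induced factors are known to bind. Sequences are from RefSeq (GRCm38.p6), the 110 bases before the annotated start of each gene, 5′ to 3′ on the gene's strand. Capitals mark matches on either strand to the interferon-stimulated response element (GAAA, any 2 bases, GAAA), or to TTCNNNGAA, the gamma-activated site that STAT dimers are known to bind; overlapping matches of 1 motif form 1 run, as in Gbp3 and Irgm1.
Gbp2, chr3:142620553-142620662, plus strand: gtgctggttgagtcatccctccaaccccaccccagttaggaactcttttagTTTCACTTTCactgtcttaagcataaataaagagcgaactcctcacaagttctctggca
Gbp3, chr3:142559934-142560043, plus strand: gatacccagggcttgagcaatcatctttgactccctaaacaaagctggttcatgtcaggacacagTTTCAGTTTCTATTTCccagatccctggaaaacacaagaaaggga
Gbp7, chr3:142530226-142530335, plus strand: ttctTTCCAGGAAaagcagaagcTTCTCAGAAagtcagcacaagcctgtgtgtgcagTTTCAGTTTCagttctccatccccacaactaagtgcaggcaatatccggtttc
Igtp, chr11:58199446-58199555, plus strand: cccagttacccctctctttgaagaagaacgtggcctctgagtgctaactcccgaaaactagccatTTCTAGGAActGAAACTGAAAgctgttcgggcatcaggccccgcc
Irgm1, chr11:48871421-48871530, minus strand: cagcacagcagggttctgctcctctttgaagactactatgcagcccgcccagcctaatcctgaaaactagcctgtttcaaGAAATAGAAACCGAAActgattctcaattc
Irgm2, chr11:58214867-58214976, plus strand: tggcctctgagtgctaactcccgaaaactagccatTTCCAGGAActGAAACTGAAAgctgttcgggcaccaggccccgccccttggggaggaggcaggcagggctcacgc

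Within 250 bases before the start, this response element was found in 6 of the 7 called GTPase genes that have a promoter window (85.7%), all but Ifi47. It was found in 3.46% of 27025 genes with a window, 3.23% of the genes tested, 5.52% of those that rose and 3.38% of those that fell. TTCNNNGAA was found in 3 of the 7 (42.9%), namely Gbp7, Igtp and Irgm2, against 8.13% of all genes, 9.51% of those that rose and 7.09% of those that fell. The Gbp genes are neighbours on chromosome 3, and Igtp and Irgm2 on chromosome 11 share a long stretch of the printed sequence. These genes are therefore not independent examples. Among members of other lists that rose and had a window, the response element was found in 0 of 4 interferon response genes. It was found in 1 of 9 MHC class I genes (11.1%), B2m.

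The same search was run for all called genes of the STAT5, Notch, interferon, MHC class I and MYC lists and the 24 genes above, 64 genes of which 50 had a window. Irf1, an interferon response factor that rose by 2.36, and Bcl6, which fell, are shown because the gamma-activated site occurs in them, in Bcl6 at 3 places within the 100 bases from -175 to -76 of an annotated start. The Irf1 sequence is again the 110 bases before the start.
Irf1, chr11:53769904-53770013, plus strand: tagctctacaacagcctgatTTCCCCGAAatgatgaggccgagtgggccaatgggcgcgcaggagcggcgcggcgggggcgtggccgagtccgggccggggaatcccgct
Bcl6, chr16:23981359-23981458, minus strand: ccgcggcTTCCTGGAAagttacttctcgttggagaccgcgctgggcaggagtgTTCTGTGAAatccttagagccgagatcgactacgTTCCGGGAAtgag

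TTCNNNGAA was found in 1 of 5 STAT5 targets that rose and had a window, Socs3. TGGGAA, bound by the Notch effector RBPJ, was found in 0 of 3 Notch genes that rose, against 24.1% of all genes, and in 6 of 9 MHC class I genes (66.7%). The windows of Psmb9 and Tap1, which lie head to head, overlap, and their matches are the same 6 bases, so these 6 genes hold 5 sites. CACGTG, the E-box that MYC binds, was found in 0 of 2 MYC network genes with a window, 10.4% of genes that rose, 8.45% of those that fell and 9.92% of genes tested. A match describes letters in this window and not a site in use.

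Most MHC class I presentation genes rose. All 14 tested lay above DP in both arrays (23% of all genes did), 11 rose, 0 fell, and the median was 1.5 (1.67 sorted, 1.33 in the line); over the alternatives 7 to 13 rose. Nlrc5, the transactivator of these genes, was at 7.23, 7.29 and 7.68 in DP, 12.21 sorted and 11.56 in the line (4.49 ± 0.28, adjusted p = 0.000239). The heavy chains H2-K1 (11.55, 11.81 and 11.48 in DP, 14.43 and 13.45) and H2-D1 (11.74, 11.99 and 11.68, 14.74 and 13.67) rose by 2.33 and 2.41. Their light chain B2m was at 12.52, 12.55 and 12.35, 14.64 and 14.33 (2.01 ± 0.21). Heavy chain genes are polymorphic between strains and alike in sequence, and only the DP thymocytes have a strain in the labels. The immunoproteasome subunits Psmb9, Psmb10 and Psmb8 rose by 2.32, 1.72 and 0.85, the activator Psme1 by 1.26, the peptide transporters Tap1 and Tap2 by 1.57 and 0.93, and the trimming peptidase Erap1 by 1.42. Tapasin (Tapbp, 1.24), Calr (0.53) and Pdia3 (0.69) did not pass. Psmb8, Tap1 and Tap2 lost their calls without any 1 DP array and with all 12 arrays in the fit, Psmb8 and Tap2 also with array weights by group and without the line. Averaged over all its probe sets Tap1 differed by 0.41, without a call. H2-D1 lost its call in 2 alternatives and Psme1 in 1.

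**Figure D5:**
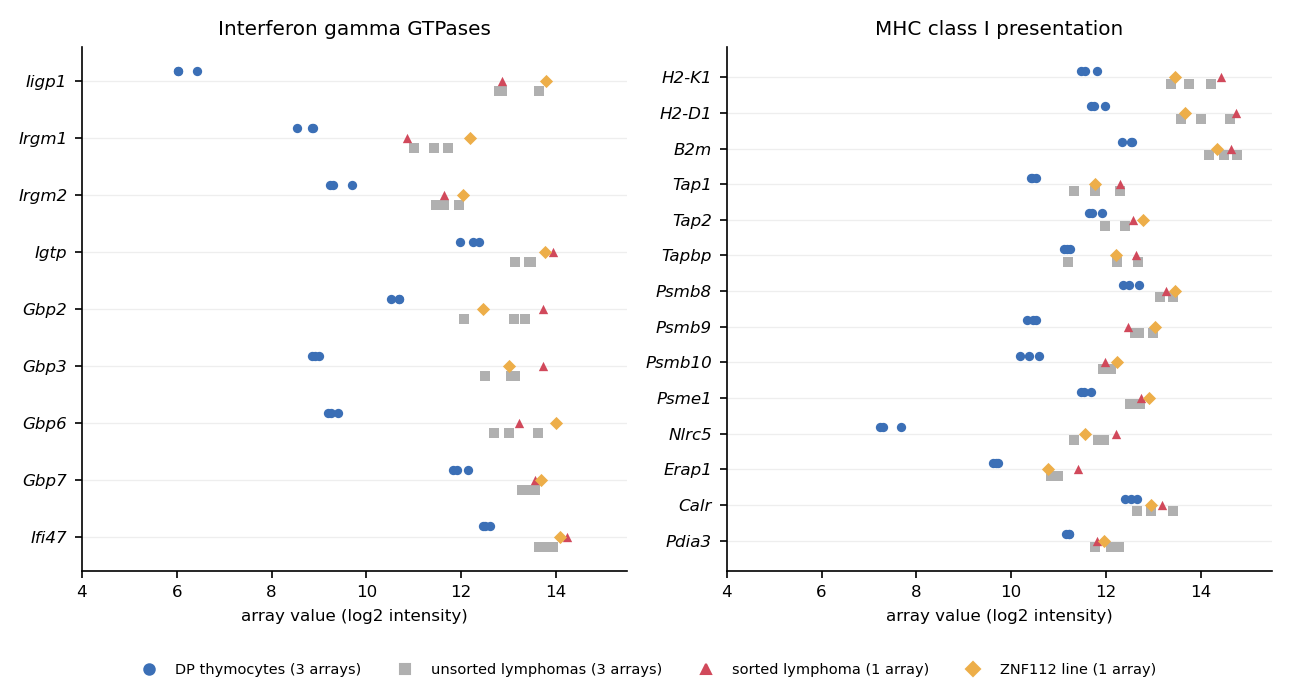
Log2 intensity on each array of the 9 interferon gamma GTPases and the 14 MHC class I presentation genes tested. In every row the sorted lymphoma and the line lie above the 3 DP arrays; the unsorted lymphomas lie above them too, apart from Tapbp and Calr, where 1 unsorted array is within the DP range.

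Of 16 genes of the wider interferon response 13 lay above DP in both arrays (23% of all genes did), 6 rose and 0 fell, and 4 to 11 rose over the alternatives. Usp18 was at 6.94, 6.87 and 6.61 in DP, 10.80 and 11.59 (4.39 ± 0.38), and the factors Irf1 and Irf9 rose by 2.36 and 2.00, Ifi35 by 1.75, Zbp1 by 1.89 and the RNA sensor Ddx58 by 1.09; Ddx58 lost its call under 8 alternatives and Zbp1 under 3. Ifit1 (6.52, 6.52 and 6.36, 8.88 and 9.37), Irf7 (8.33, 8.38 and 8.29, 9.72 and 11.06), Ifih1 (9.06, 8.98 and 8.85, 10.11 and 11.58) and Bst2 (6.72, 6.93 and 6.45, 7.82 and 10.21) lay above DP in both arrays without passing (adjusted p = 0.204, 0.103, 0.136 and 0.0836). The type I markers Mx1 (5.65, 5.66 and 5.57, 5.67 and 6.09), Rsad2 (7.34, 7.47 and 7.36, 7.36 and 8.64) and Ifit3 (0.55) did not pass, and Mx1 was at 7.57, 6.53 and 10.34 in the unsorted lymphomas. The list's medians were 1.38 in the sorted lymphoma and 2.28 in the line. Ifng itself was at 5.28, 5.23 and 5.19 in DP, 6.55 sorted, 5.74 in the line and 13.37, 9.34 and 8.30 in the unsorted tumours; the lymphoma-cell values lay under log2 6.7.

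Among inflammasome genes 3 of 10 rose and among cytotoxic genes 1 of 8, where 3.64% of all genes did. The inflammatory caspases Casp1 and Casp4, neighbours on chromosome 9, both rose. Casp1 was at 5.57, 5.63 and 5.83 in DP, 11.70 in the sorted lymphoma and 9.39 in the line (4.87 ± 0.57). Casp4 was at 5.68, 5.71 and 5.66, 12.50 and 8.56 (4.85 ± 0.98) and lost its call under 7 alternatives. Card6 (2.98) was the third that rose and lost its call under 9, so that 1 to 3 members rose over the alternatives, while Il18, Il1b, Mefv and Ifi204 lay near the DP level in both arrays. Gzma, granzyme A, was the cytotoxic gene that rose (10.46, 10.75 and 10.68 in DP, 14.47 and 15.03; 4.12 ± 0.31). Gzmb, granzyme B, was at 6.72 in the sorted lymphoma and 13.28 in the line (DP 6.41, 5.95 and 6.35), and perforin (Prf1) was at 6.86 and 6.14, below DP (7.58, 7.69 and 7.42).

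In the T cell receptor complex and double-positive stage lists, falls were more frequent than the 3.26% of all genes that fell. The first list also holds signalling genes and regulators outside the complex, Cd5 and Cd6 among them. Of 18 T cell receptor complex genes 0 rose and 3 fell (Cd5, Cd6 and the zeta chain Cd247 by 1.42); Cd247 lost its call under 10 alternatives, and 2 to 8 members fell over the alternatives, 8 of them without the sorted lymphoma. Cd3d, Cd3e and Cd3g differed by -0.38, -0.26 and -0.16 and the kinase Zap70 by -0.83, none past the test. The costimulatory receptor Cd28 was at 13.40 in the sorted lymphoma and 8.75 in the line (DP 12.96, 12.97 and 12.91). Of 19 DP stage genes 15 lay below DP in both arrays (22.7% of all genes did), 7 fell and 2 rose, with medians of -0.85 sorted and -1.39 in the line. Rag2 was at 12.19, 11.99 and 12.16 in DP, 10.13 and 7.97 (-3.06 ± 0.67) and its neighbour Rag1 at 14.71, 14.53 and 14.54, 13.82 and 13.64 (-0.86 ± 0.17). The transcription factor Ets2 (14.36, 14.44 and 14.46, 11.65 and 11.13) fell by 3.03, the chromatin organiser Satb1 by 1.28, Thy1 by 0.83, and Bcl6 and Tdrp as above. Cd24a (0.86) and the nucleoside transporter Slc29a1 (1.52) rose. Calls were lost under 9 alternatives for Rag2, 7 each for Cd24a and Slc29a1, 6 for Rag1, 5 for Thy1 and 3 for Satb1. Cd4, Cd8a and Cd8b1 did not pass (adjusted p = 0.055, 0.185 and 0.173), and the sorted lymphoma and the line lay far apart for each; another probe set of Cd4 did fall (-3.04, adjusted p = 0.0213). Over the alternatives 3 to 13 members fell and 0 to 2 rose.

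Among 24 T lineage factors Runx3 rose and 3 fell, where 3.64% and 3.26% of all genes did. Runx3, known from CD8 and innate-like lymphocytes, was at 6.4, 6.17 and 6.59 in DP, 11.48 sorted and 9.66 in the line (4.18 ± 0.79). Egr1, induced by receptor signalling, was at 12.83, 12.85 and 12.91, 8.58 and 6.95 (-5.10 ± 0.70), Tox, a factor of thymic selection, at 10.82, 10.37 and 10.65, 7.87 and 9.39 (-1.99 ± 0.44), and E2f2 fell by 3.08. Bcl11b (-0.47), Ets1 (-0.41), Lef1 (0.11) and Ikzf1 (-0.99) did not pass. Egr2 and Egr3, relatives of Egr1, did not pass by the probe sets used. Another probe set of each did fall (-2.86 and -3.22, adjusted p = 0.0308 and 0.00131). Runx3 and E2f2 lost their calls without any 1 DP array, and Tox under 10 alternatives. Among 17 reporters of T cell receptor signals and checkpoint receptors, Ctla4 and Tnfrsf18 (1.39) rose, and Cd5, Cd6, Egr1 and Ikzf2 (-1.13) fell; Tnfrsf18 and Ikzf2 lost their calls under 5 alternatives each. Nr4a1, a sensitive reporter of receptor signalling, was at 10.72, 10.85 and 11.02 in DP, 10.30 sorted and 7.79 in the line. Pdcd1, the PD-1 gene, was lower in both arrays (6.59 and 6.72) than in DP (7.43, 7.67 and 7.64), and reached 10.92, 6.83 and 9.23 in the unsorted tumours.

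Some regulators of the G1 phase changed, and no replication or mitosis gene passed the test. Of all genes 3.64% rose and 3.26% fell. Of 21 G1 genes Cdk6 (11.10, 11.56 and 11.43 in DP, 13.81 and 14.02; 2.56 ± 0.19) and the inhibitors Cdkn1a (8.24, 8.14 and 8.37, 10.98 and 11.79; 3.13 ± 0.38) and Cdkn2b (7.26, 7.2 and 6.80, 11.46 and 9.40; 3.34 ± 0.70) rose, and Ccnd3 and E2f2 fell; Cdkn2b lost its call under 6 alternatives. Cdkn2a, which encodes p16 and p19Arf, was at 6.12 in the sorted lymphoma, within the DP range of 5.95, 5.75 and 6.22, and at 10.10 in the line. For 19 replication and 17 mitosis genes 0 calls were made by limma in either direction, where 6.9% of all genes were called; at an unadjusted p under 0.05 there were 0 replication genes and 1 mitosis gene. Up to 7 replication genes and 2 mitosis genes rose under an alternative. Replication genes had medians of -0.28 in the sorted lymphoma and 1.14 in the line, and mitosis genes of 0.09 and 1.29. Mki67 was at 12.73, 13.31 and 13.43 in DP, 12.91 sorted and 14.21 in the line. Cdkn1a was also the only p53 target of 13 that rose; Fas (-2.36) and Gadd45a (-1.62) were lower in both arrays without passing. Of 15 receptor kinase and ERK feedback genes 0 rose in limma (2 were higher at an unadjusted p under 0.05), and Egr1 and Spred1 (-2.46, a call lost under 3 alternatives) fell. Spry1, an inhibitor induced by FGF signalling, was high in both (12.69 and 10.22, DP 7.80, 7.88 and 7.67; 3.67 ± 0.90, adjusted p = 0.0555).

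Medians of the metabolic lists were higher in the line than in the sorted lymphoma. For the counts below, 3.64% of all genes rose and 3.26% fell. Of 13 amino acid response and serine synthesis genes 5 rose and 0 fell: the stress factor Atf4 (11.36, 11.66 and 11.67 in DP, 12.28 and 13.10), its target Trib3 (6.97, 6.81 and 6.72, 8.77 and 10.69), the serine enzyme Phgdh (1.73) and the mitochondrial folate enzymes Shmt2 (8.88, 9.24 and 9.34, 11.07 and 13.06) and Mthfd2 (2.44). The list's medians were 0.75 in the sorted lymphoma and 2.28 in the line, and 0 to 8 members rose over the alternatives, 0 of them without any 1 DP array. Calls were lost under 13 alternatives for Atf4, 6 each for Trib3, Phgdh and Mthfd2, and 4 for Shmt2. Sterol and fatty acid genes had medians of 0.4 and 2.16. Only Acaca rose (1.89), a call lost under 4 alternatives. Cyp51, for example, was at 8.53 in the sorted lymphoma and 11.41 in the line (DP 7.58, 7.71 and 7.76). Of 13 glycolysis genes Aldoa rose (1.30), a call lost under 9 alternatives. In the erythroid marker list the transferrin receptor Tfrc (11.64, 11.51 and 11.64 in DP, 13.69 and 14.33; 2.42 ± 0.21) and Gata1 (2.55, a call lost under 10 alternatives) rose, while Car2 fell by 4.61.

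The remaining lists are those of homing, the BCL2 family and markers of other cells. Of 17 homing and adhesion genes Plac8 rose and Icam2, an adhesion molecule of lymphocytes, fell by 1.68 (3.64% and 3.26% of all genes did), a call lost under 9 alternatives; the list's medians were 1.03 in the sorted lymphoma and -0.2 in the line. Of 11 BCL2 family genes Bcl2 rose and Bcl2l1 fell; 1 rose under every alternative and 0 to 3 fell. B cell markers (11 measured genes) summed to 16099 to 18739 in DP, 3684 in the sorted lymphoma and 1157 in the line. In DP most of the sum was Ighm, the immunoglobulin mu chain. Ighm was at 13.93, 14.10 and 13.86 in DP, 11.47 sorted and 7.06 in the line. It fell by 4.69 with the call lost under 11 alternatives. Other probe sets of Ighm were not called and differed by -5.17 (adjusted p = 0.0522) and by -0.17 to 0.12. Megakaryocyte markers (7 measured genes) summed to 750 to 783, 726 and 1390, and natural killer markers (5 measured genes) to 291 to 293, 526 and 354 linear units. Nkg7, the 1 natural killer marker tested, was at 7.06, 7 and 7.08 in DP, 8.54 sorted and 7.61 in the line. T cell markers (10 genes) summed to 121534 to 136564, 85801 and 56445. In both arrays 8 of the 10 were lower than DP (22.7% of all genes were), and Thy1 was the only one that fell.

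Set against the unsorted tumours, lymphoma cells were lower in 417 genes (3.65%) and higher in 60 (0.525%), 4.17% in all. Without DP array 1, 2 or 3 the total of 477 became 303, 299 and 302, without the sorted lymphoma 1360, and without unsorted lymphoma 2 it became 761. Decorin (Dcn), a matrix proteoglycan of fibroblasts, was at 14.19, 12.96 and 13.75 in the unsorted tumours, 6.05 in the sorted lymphoma, 5.98 in the line and 5.80, 6 and 5.98 in DP (-7.62 ± 0.33, adjusted p = 9.39e-05). Vcam1 of endothelium and macrophages (-7.59), the plasma protease inhibitors Serpina1b (-7.14) and Serping1 (-6.56) and the MHC class II chain H2-Ea (-6.94) followed, and Abca1 (-6.19) was the sixth. H2-Ea was at 13.43, 13.23 and 13.91 unsorted, 6.92 sorted, 6.25 in the line and 7.75, 8.04 and 7.97 in DP, so it lay below both. It was the 1 gene of its marker list that fell against DP (-1.33), a call lost under 8 alternatives (adjusted p up to 0.557), and another probe set of it differed by -0.30 (adjusted p = 0.545). A probe set of H2-Ab1 not used here as its main one fell as well (-1.16, adjusted p = 0.0459). Of the tested markers 10 of 11 macrophage, 8 of 10 stromal and 6 of 9 MHC class II and dendritic genes were lower than in the unsorted tumours.

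Of the 417 genes, 370 were not called against DP, where 6.9% of all genes were called. Of those 370, 223 were not kept by the rule either, where 45.7% of all genes were kept. A smaller set differed from both sides. Against DP and against unsorted tumours, 46 genes were lower, among them Abca1, Hipk3, F13a1, St6gal1, H2-Ea, Tfpi and Car2, and 18 were higher, among them Mpzl2, Scn4b, Tgif1, Zfp704, Atf4, Kcnip2 and Lpxn. Of all genes 3.26% fell and 3.64% rose against DP, while 3.65% were lower and 0.525% higher than the unsorted tumours. Both sides share the lymphoma-cell arrays, so these overlap counts are a description. Among the 6 genes furthest above the unsorted tumours were Mpzl2 (2.43 ± 0.42, adjusted p = 0.0204), the sodium channel subunit Scn4b (2.03; 9.24, 9.48 and 9.02 in DP, 8.47, 8.72 and 8.34 unsorted, 10.56 and 10.53), the repressor Tgif1 (2.09), Fam183b (2.49), the activin receptor Acvr2b (2.50) and the ganglioside enzyme St8sia1 (2.42). Against the unsorted tumours St8sia1 lost its call under 6 alternatives (adjusted p up to 0.37), Fam183b under 5, Mpzl2 under 4 (up to 0.202) and Abca1 under 1, with all 12 arrays in the fit (0.0727). Cathepsin S (Ctss), a protease of antigen-presenting cells, was the 1 gene higher than DP and lower than the unsorted tumours, at 8.09, 8.38 and 8.19 in DP, 11.27 sorted, 9.77 in the line and 13.90, 13.14 and 13.48 unsorted. Gigyf1, Uhrf1bp1l and Ikzf2 were the 3 lower than DP and higher than the unsorted tumours; Ikzf2 was at 12.76, 12.76 and 12.96 in DP, 11.53 and 11.86 in lymphoma cells and 10.23, 10.16 and 10.59 in the unsorted tumours.

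The 2 lymphoma-cell arrays differed from each other in many genes: 483 were higher in the sorted lymphoma (4.22%) and 300 in the line (2.62%), each array being assumed to vary like the other groups. Without DP array 1, 2 or 3 the total of 783 became 112, 85 and 103, without unsorted lymphoma 1, 2 or 3 it became 1492, 1477 and 2029, with all 12 arrays in the fit 73, and with array weights by group 0 (862 at an unadjusted p under 0.05). Higher in the sorted lymphoma were Cd8b1 (7.04 ± 0.58), the noncoding RNA AW112010 (13.08 against 6.13, DP 8.45, 8.40 and 8.52), Ifi209 of the interferon-inducible Ifi200 family (11.48 against 4.63, DP 8.72, 8.44 and 8.40), the phosphatase Acpp (13.91 against 7.30, DP 7.32, 7.21 and 7.64), Hsd17b11 (6.26) and the leukocyte actin-binding protein Lsp1 (5.72). Higher in the line were Ddx3x, Myh10 (nonmuscle myosin IIB), Hey1, Akr1c13, the adaptor Gab2 and Pdlim4, with sorted minus line differences of -6.26, -5.91, -5.90, -5.78, -5.68 and -5.66. Each of these 12 genes lost its call with array weights by group, Cd8b1 there alone, and the others under 2 to 7 alternatives. Ddx3x, an X-linked RNA helicase, was low in the sorted lymphoma alone: it lay at 14.19, 14.04 and 14.05 in DP, 14.02 in the line and 13.82, 11.61 and 13.79 in the unsorted tumours but at 7.76 in the sorted one. Its other probe sets gave 6.87 and 7.43 in the sorted lymphoma against 12.15 and 13.49 in the line.

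Some genes that rose or fell moved in the same direction in both lymphoma-cell arrays but by unequal amounts. Casp1 and Casp4 were raised further in the sorted lymphoma (sorted minus line 2.31 and 3.94), as was Trgv4. Shmt2 was raised further in the line (-1.99). Among genes that fell, Ighm, the glycoprotein Cd52 (13.04, 13.03 and 12.82 in DP, 11.29 and 9.21), the adaptor Sla, which lowers T cell receptor signals (14.52, 14.51 and 14.43, 12.88 and 9.91), and the GTPase Gimap8 (13.63, 13.35 and 13.46, 11.50 and 9.83) were lower in the line than in the sorted lymphoma, while E2f2 was lower in the sorted lymphoma (8.65 and 10.56).

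Several called genes lie next to each other. Among 11401 tested genes with a place in RefSeq, 71 neighbouring pairs changed the same way and 25 opposite ways, and 134 genes formed 63 runs of neighbours with 1 direction. The longest runs held 4 genes: Gbp7, Gbp3, Gbp2b and Gbp2 on chromosome 3, and Psmb9, Tap1, Psmb8 and Tap2 on chromosome 17, all of which rose. Runs of 3 included Parp14, Dtx3l and Parp9 on chromosome 16, interferon-inducible genes that rose, and Cd5, A430093F15Rik and Cd6 on chromosome 19, which fell. Pairs included Il2ra and Il15ra on chromosome 2, Osm and Lif on chromosome 11, and Myc and the noncoding RNA Pvt1 on chromosome 15, which rose, and Rag1 and Rag2 on chromosome 2, which fell. No comparison with chance was made, and gene families in clusters can share probe signal.

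The rule has no minimum distance, so at its edge 1 of the lymphoma-cell arrays lies at the DP level. Just inside it above DP were Fat2, Sod3 and Strap, and below Sdhaf2, Marchf7 and Zfp317. Strap was at 11.78, 11.77 and 11.76 in DP, 11.78 in the sorted lymphoma and 12.43 in the line. Just outside were Haus1, Tprkb and Myo15 above and Kcnd3, Sfrp5 and Zc3h3 below; Haus1 was at 10.18, 10.20 and 10.12, 10.20 and 10.69. Mean differences from DP of these 12 genes ranged from -0.46 to 0.33.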

How the data were processed

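Total RNA from sorted thymocytes, lymphomas and the ZNF112 line was amplified in 2 cycles and hybridised to Affymetrix Mouse430 2.0 arrays, per the labels' protocols. The deposited values are linear intensities made by the authors with RMA, per the submitters' processing notes, which give no version. Differences are in log2 of the deposited intensities. The 8 arrays of the T cell side have median intensities of 99.5 to 109 and the 4 stem cell arrays of 44.3 to 46.1, so the latter were left out except in an alternative setting. Of 45101 probe sets, 34945 carry 1 gene symbol in GEO's platform annotation, 932 several, 9160 none, and 64 are array controls. For each of 18193 genes the probe set brightest on average across the 8 arrays was used, and 11433 genes above log2 6.7 in at least 2 arrays were tested.

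One limma fit (version 3.58.1, R 4.3.3) held the 8 arrays as 3 sets: DP thymocytes, unsorted lymphomas and lymphoma cells. Residual degrees of freedom were 5 and rose to 7.35 after moderation. The sorted lymphoma and the line were compared in a second fit with each as a group of 1. P-values were adjusted by Benjamini-Hochberg over all genes tested, with a threshold of 0.05. No replicate structure beyond the group labels was used; the DP arrays are pools and the lymphomas separate samples by their labels, so the p-values measure the spread between these samples. The procedure was tested on simulated data.

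Named were the 12 called genes each way with the largest distance from the DP mean in the less changed lymphoma-cell array, members of 34 gene lists (487 genes, of which 446 have a probe set and 398 were tested), the 6 genes each way furthest from the unsorted tumours and between the sorted lymphoma and the line, and 3 genes each way on either side of the rule's edge. Other genes named within counts were chosen after their values were seen. The samples, the rule and the lists were chosen with earlier results of these data known. Promoter sequences are from RefSeq (GRCm38.p6). Alternatives changed the arrays in the fit, weights, normalization, probe set choice, filter, floor, moderation and each array left out.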

Additional observations from a re-analysis of the deposited data

Results flagged for a closer look

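No group had 4 or more arrays, so single arrays were not tested for standing apart. The results below were singled out because a test of the difference itself, between the sorted lymphoma and the line or between lymphoma cells and the unsorted tumours, passed the threshold for a gene named in the report. No explanation was weighed.

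Sorted minus line, in log2, Cd8b1 differed by 7.04, AW112010 by 6.95, Ifi209 by 6.85, Acpp by 6.61, Hsd17b11 by 6.26 and Lsp1 by 5.72. In the other direction Ddx3x differed by -6.26, Myh10 by -5.91, Hey1 by -5.9, Akr1c13 by -5.78, Gab2 by -5.69 and Pdlim4 by -5.66. Genes that rose or fell in both arrays but unequally were Ighm (4.41), Casp4 (3.94), Casp1 (2.31), Shmt2 (-1.99) and E2f2 (-1.92). These p-values rest on 1 array a side.

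Lymphoma cells minus unsorted tumours, in log2, H2-Ea differed by -6.94, Abca1 by -6.19, Hipk3 by -4.06, St6gal1 by -3.82, F13a1 by -3.17 and Car2 by -2.35. Mpzl2 differed by 2.43, Ikzf2 by 1.37 and Atf4 by 1.22. Macrophage, stromal and MHC class II marker sums were higher in the same unsorted arrays, and their part in these differences was not tested.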

How the results depend on the processing

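Lymphoma cells against DP thymocytes gave 789 genes, 409 with all 12 arrays in the fit, 1906 with the sorted lymphoma and the line as groups of their own, 467 with array weights by group, and 292 to 2402 when single arrays were left out. Against the unsorted tumours 477 genes became 203, 841 and 249 under the same settings, 273 with values floored at the filter level, and 299 to 1360 when single arrays were left out. Sorted lymphoma against line gave 783 genes, 73 with all 12 arrays, 5065 with only the 5 arrays of the rule, 0 with array weights by group (smallest adjusted p = 0.0729), and 85 to 2029 when single arrays were left out. The rule kept 5230 genes, and 5230 to 9677 when single arrays were left out. The cause of these shifts was not tested. Of 127 results for named genes 63 kept their direction and call under every alternative that could test them, and 0 reversed. Over 2627 combinations of gene and alternative, 331 lost the call and 2296 kept it. Low signal limits sizes where 1 side lay under log2 6.7. No paired analysis was possible because the labels pair neither the sorted lymphoma nor the line with a DP array.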
